A study of Mus musculus with 8 samples.

Results

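Sox10, Pax3, Lef1, Mc1r, Kit and Ednrb are 6 genes that control or receive signals in the melanocyte lineage. They were chosen by symbol, and all 6 were found by Ensembl identifier among the 34745 genes of the files. Of the 6, 5 passed the filter on low counts together with 13186 genes in all, and Lef1 did not pass. RNA-seq had been carried out on 8 melanoma samples. Each was grown from cultured B16F10 cells, a pigmented mouse melanoma line that arose in the C57BL/6 strain, put under the skin of C57BL/6J mice. In the ND group (4 samples, ND 1 to ND 4) the mice ate a normal diet, and in the HCD group (4 samples, HCD 1 to HCD 4) a high cholesterol diet. Both groups carry the same cell line and host strain, and the tumour tissue can also hold immune, vessel and other host cells. The labels name neither the age and sex of the mice nor whether each tumour came from its own mouse. What the p-values measure is therefore the variation among these 8 samples, and this may be technical in part or whole.

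Melanocytes descend from the neural crest. The transcription factors SOX10 and PAX3 act in that lineage on the gene of MITF, its central regulator, and LEF1 carries the nuclear signal of the Wnt pathway through β-catenin. MC1R is the receptor for melanocyte-stimulating hormone and raises cyclic AMP. KIT is the receptor tyrosine kinase for stem cell factor, and EDNRB is the receptor for endothelins. Both are needed for melanoblast survival and migration, and loss of either gives white spotting in mice.

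Sequences at the RefSeq starts of the 3 receptor genes are shown beside their levels, of which that of Mc1r lay far above the other two. RefSeq (GRCm38.p6) gave the 250 bases before a start for 4 of the 6 members, Mc1r, Kit, Ednrb and Lef1. The Mc1r stretch is chr8:123406832-123407081 (plus strand), that of Kit chr5:75574737-75574986 (plus strand, the first of 2 listed starts), of which chr5:75574737-75574915 is printed, and that of Ednrb chr14:103843702-103843951 (minus strand). RefSeq and GENCODE starts differ: the last 71 of the 250 Kit bases lie in the first GENCODE exon of Kit and are left out, and all 250 Ednrb bases lie inside the GENCODE gene, outside its exons. Each is written 5′ to 3′, and capitals mark matches to the motifs listed next.
Mc1r: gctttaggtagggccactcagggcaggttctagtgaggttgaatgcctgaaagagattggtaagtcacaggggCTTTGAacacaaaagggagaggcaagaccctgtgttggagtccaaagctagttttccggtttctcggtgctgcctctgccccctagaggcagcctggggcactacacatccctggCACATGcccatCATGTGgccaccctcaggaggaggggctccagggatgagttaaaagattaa
Kit: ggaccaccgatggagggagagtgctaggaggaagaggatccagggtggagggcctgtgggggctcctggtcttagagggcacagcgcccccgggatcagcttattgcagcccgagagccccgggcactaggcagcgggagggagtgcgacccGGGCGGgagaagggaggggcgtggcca
Ednrb: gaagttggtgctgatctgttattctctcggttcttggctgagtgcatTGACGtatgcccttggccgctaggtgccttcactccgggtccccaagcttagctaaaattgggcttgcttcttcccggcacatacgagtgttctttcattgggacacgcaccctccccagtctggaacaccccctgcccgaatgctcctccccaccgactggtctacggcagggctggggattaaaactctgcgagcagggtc

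On both strands, 9 motifs were searched, none of which overlapped another in these 3 stretches. One was the E-box CACGTG, bound by many helix-loop-helix factors. Another was CATGTG, the core of the M-box bound by MITF. The cyclic AMP response element was searched as TGACGTCA and, within it, as the shorter TGACG. SOX factors were represented by ACAAAG and by a second form of the site, ACAATG. The site of TCF and LEF factors was CTTTGA, the GC box was searched as GGGCGG and the TATA box as TATAAA. The Mc1r stretch held CATGTG at position -51, counted from the RefSeq start with -1 as the last of the 250 bases, and its reverse complement CACATG at -62, a motif found in 12.3% of 32851 promoters of the same length. It also held CTTTGA at -177 (13.8% of promoters). The Kit stretch held GGGCGG at -98 (32.7%), and that of Ednrb held TGACG at -203 (17.8%). Over the full 250 bases, CG dinucleotides numbered 2 in the Mc1r stretch, 17 in that of Kit and 11 in that of Ednrb, against a median of 6 over all promoters. A match describes the letters and is not evidence of binding.

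The libraries held 14599222 to 17722093 counts. Each library was scaled to a common size (CPM) with TMM factors, which correct for differences in library makeup. Levels between genes were compared with the deposited FPKM, a value scaled to gene length and to library size. ND 2, ND 3 and ND 4 stood apart from the rest, with counts on 406 to 427 olfactory and vomeronasal receptor genes against 8 to 13 in the other 5 libraries. Each tested member is therefore also given with a term for these 3 libraries, which leaves ND 1 alone to stand for ND in the diet contrast. Melanocyte markers were present in every library: Pmel, Tyrp1, Dct and 7 others summed to 29091 to 30875 CPM in ND and to 26785 to 31031 CPM in HCD. None of the 10 differed between diets at an adjusted p under 0.05 (edgeR), and 1 had an unadjusted p under 0.05.

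Sox10 and Mc1r were among the most abundant transcripts of these tumours, Pax3 was expressed at a moderate level, Ednrb and Kit were low and Lef1 was close to absent. Sox10 averaged 281 ± 29.4 FPKM (SD, n = 8 libraries), the rank of 110 among 13186 tested genes. Mc1r averaged 169 ± 9.04 FPKM, the rank of 206, and Pax3 averaged 17.97 ± 1.47 FPKM. Ednrb averaged 0.776 ± 0.174 FPKM and Kit 0.518 ± 0.174 FPKM, so that 17.4% and 12.8% of tested genes had a lower mean level per length. Lef1 averaged 0.00963 FPKM.

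Going down that order, Sox10 was above Mc1r by 1.36 to 1.84 times within each library, and Mc1r above Pax3 by 8.25 to 11.0 times. Pax3 was above Ednrb by 16.4 to 32.9 times. Ednrb and Kit did not differ beyond their spread: their ranges overlapped, and Ednrb was the higher of the 2 in 6 of 8 libraries. The gene lengths behind the deposited FPKM were not those of the annotation for 5 members. They were 12958 bases for Kit against 8911 annotated exon bases, 8623 against 6187 for Pax3, 7156 against 4266 for Ednrb, 9246 against 8788 for Lef1 and 2713 against 3051 for Sox10. Mc1r had 3638 bases in both. With annotated lengths, a comparison added after seeing the data, the order was the same, Pax3 averaged 25.04 FPKM, Ednrb 1.30 FPKM and Kit 0.754 FPKM, and Ednrb was above Kit in 7 of 8 libraries.

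**Figure D1:**
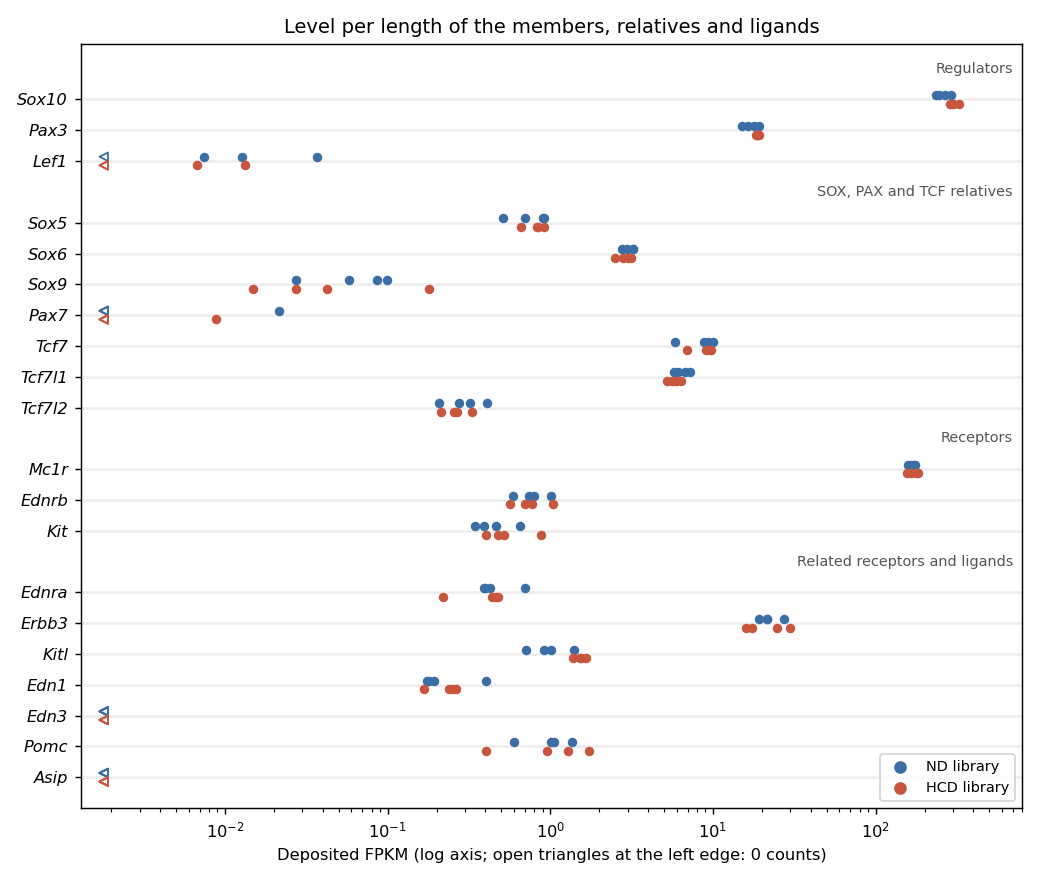
Deposited FPKM (log axis) of the members, their relatives and their ligands, 1 point for each of the 4 ND (blue) and 4 HCD (red) libraries, with open triangles for a count of 0. Sox10 and Mc1r lie above 150 FPKM, Ednrb and Kit share one range, and Edn3 and Asip have no count in any library.

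No member passed the test for a difference between diets: 0 of the 5 tested had an adjusted p under 0.05 (edgeR quasi-likelihood test, Benjamini-Hochberg over 13186 genes), where 0.182% of all tested genes did, 0.0683% higher in HCD and 0.114% lower. Of the 5, 1 (Sox10, higher in HCD) had an unadjusted p under 0.05, as did 14.7% of all tested genes, 7.21% higher and 7.49% lower. CPM of the 2 groups overlapped for all 6 members, while they did not overlap for 9.67% of tested genes. In bulk tumour tissue, fewer cells of a type and less RNA per cell cannot be told apart.

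Sox10 (ENSMUSG00000033006, chromosome 15, 79154908 to 79165240, minus strand, mm10, 5 exons) encodes an HMG-box factor of the neural crest. It was at 675.3, 734.9, 656 and 800.3 CPM in ND 1 to ND 4 and at 784, 797, 869 and 786 CPM in HCD 1 to HCD 4. ND 4 lay among the HCD values, the other 3 ND libraries lay below all of them, and HCD 3 was the highest of all 8. Averages were 717 ± 65.0 CPM for ND against 809 ± 40.2 CPM for HCD (± is SD, n = 4 per diet from here on). The log2 fold change was 0.17 (SE 0.0742, 95% interval 0.0101 to 0.34), with an adjusted p of 0.311 (edgeR). It ran from 0.14 to 0.23 as each library was left out, and it was 0.26 with the term for the 3 libraries that stood apart (adjusted p = 0.458).

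Pax3 (ENSMUSG00000004872, chromosome 1, 78101267 to 78197134, minus strand, 9 exons) encodes a paired-domain factor that acts with SOX10. It was at 143.7, 132, 159 and 169 CPM in ND 1 to ND 4 and at 155, 162, 159 and 161 CPM in HCD 1 to HCD 4. The 4 HCD values lay close together inside the wider ND range, with a standard deviation of 3.26 CPM against 16.2 CPM in ND. ND averaged 151 CPM and HCD 159 CPM, and the log2 fold change was 0.08 (95% interval -0.099 to 0.25, adjusted p = 0.717, edgeR). It ran from 0.02 without ND 2 to 0.14 without ND 4, and the term for the 3 libraries that stood apart gave 0.15.

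Lef1 (ENSMUSG00000027985, chromosome 3, 131110471 to 131224356, plus strand, 14 exons) encodes the HMG-box partner of β-catenin. It had 6, 2, 0 and 1 counts in ND 1 to ND 4 and 1, 2, 0 and 0 counts in HCD 1 to HCD 4. ND 1 alone held 6 of the 12 counts, and only ND 1 exceeded the 3 counts that an observed 0 allows, which are 0.169 to 0.205 CPM in these libraries. The HCD to ND ratio of summed counts was 0.326 with an exact 95% counting interval of 0.0568 to 1.31, and a two-sided exact permutation test over the 8 libraries gave p = 0.371. The smallest p that 4 against 4 allows is 0.0286. No difference between diets was detectable at this depth. Lef1 shares 1208 exon bases with Gm43352, an antisense gene with 1 count in ND 2 and none elsewhere.

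Mc1r (ENSMUSG00000074037, chromosome 8, 123407107 to 123410744, plus strand, a single annotated exon block) is the melanocortin receptor gene. It was at 642, 616, 646 and 587 CPM in ND 1 to ND 4 and at 639, 586, 641 and 572 CPM in HCD 1 to HCD 4. Both groups spanned nearly the same range, with means of 623 ± 27.1 and 609 ± 35.5 CPM. The log2 fold change was -0.03 (95% interval -0.17 to 0.11, adjusted p = 0.865, edgeR), an interval that lies within 0.2 of zero on both sides. With the term for the 3 libraries that stood apart it was -0.07. Mc1r shares 653 exon bases with Gm38092, which had 2 counts in HCD 1 and none elsewhere.

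Kit (ENSMUSG00000005672, chromosome 5, 75574916 to 75656722, plus strand, 21 exons) was at 5.15, 4.58, 8.71 and 6.11 CPM in ND 1 to ND 4 and at 6.54, 11.2, 6.11 and 5.28 CPM in HCD 1 to HCD 4. HCD 2 with 185 counts and ND 3 with 141 stood above the other 6 libraries, which held 76 to 109. The log2 fold change was 0.25 (95% interval -0.36 to 0.86, adjusted p = 0.744, edgeR). It became -0.04 without HCD 2, so the higher HCD mean rested on that library. The term for the 3 libraries that stood apart gave 0.50.

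Ednrb (ENSMUSG00000022122, chromosome 14, 103814625 to 103844402, minus strand, 8 exons) was at 7.27, 5.42, 4.32 and 5.76 CPM in ND 1 to ND 4 and at 3.90, 4.91, 7.38 and 5.56 CPM in HCD 1 to HCD 4. ND 1 and HCD 3 were the highest libraries and HCD 1 the lowest, so each group held both high and low values. The log2 fold change was -0.07 (95% interval -0.58 to 0.44, adjusted p = 0.931, edgeR). It was 0.07 without ND 1, 0.06 without HCD 1 and -0.25 without HCD 3. The term for the 3 libraries that stood apart gave -0.42.

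**Figure D2:**
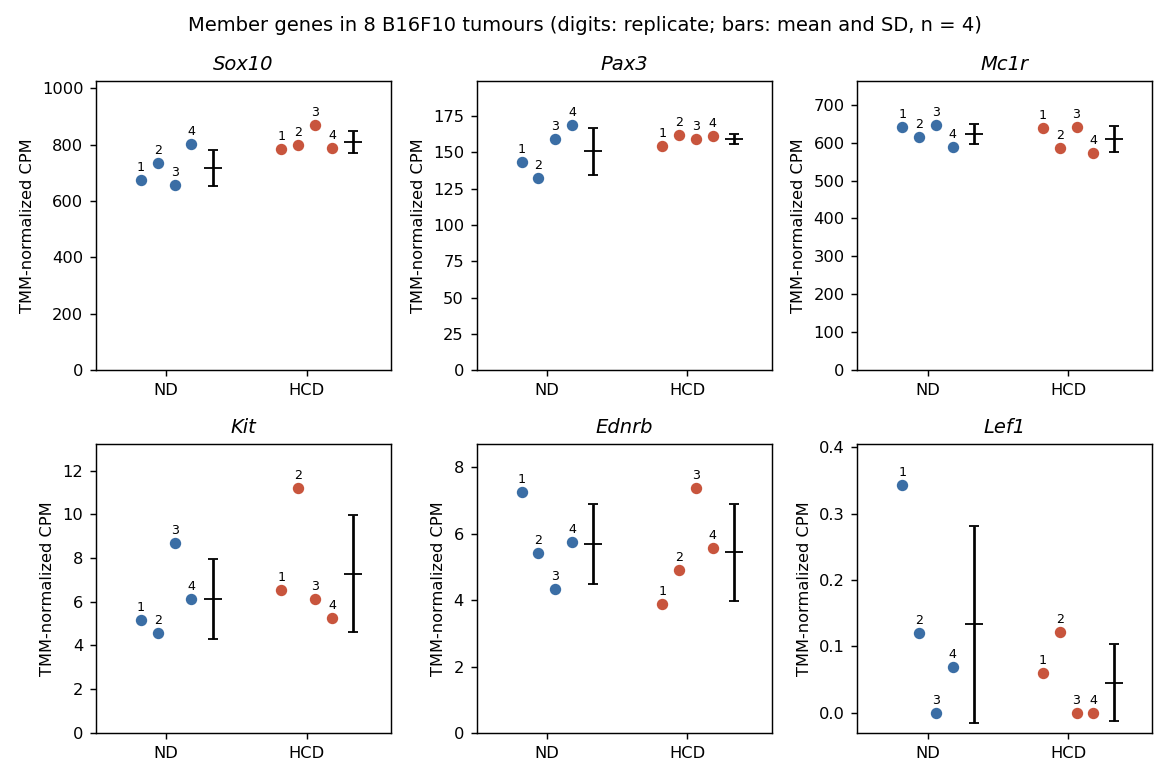
TMM-normalized CPM of each member in the 4 ND (blue) and 4 HCD (red) libraries, with the replicate number at each point and the mean and SD (n = 4) beside each group. Groups overlap in every panel. ND 4 at 800.3 CPM is the only ND library among the HCD values of Sox10, and HCD 2 at 11.2 CPM stands above the rest for Kit.

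**Figure D3:**
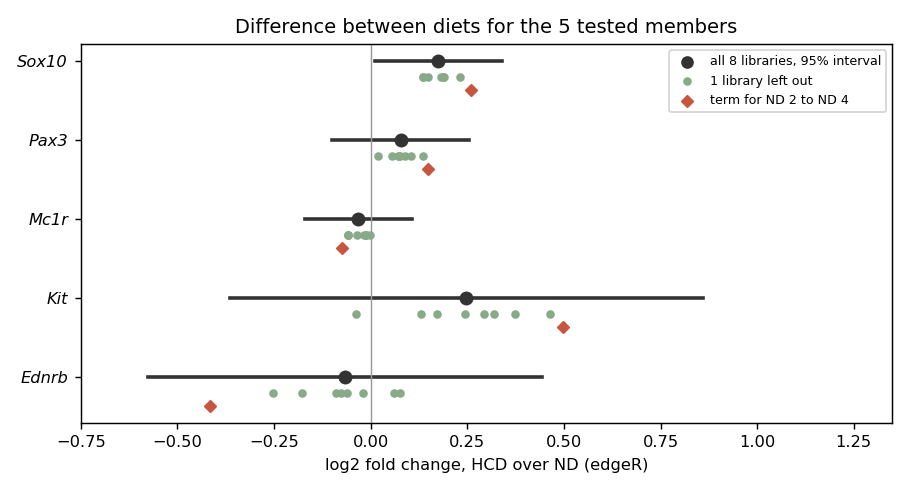
Log2 fold change of HCD over ND (edgeR) for the 5 tested members, with the 95% interval (line), the fits that leave out 1 library (green) and the fit that models ND 2, ND 3 and ND 4 separately (red diamonds). The intervals of Pax3, Mc1r, Kit and Ednrb include 0, and those of Kit and Ednrb are the widest.

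The abundant members were also the steadiest. Within groups, CPM varied by 5.12% for Mc1r, 7.09% for Sox10 and 7.52% for Pax3 (coefficient of variation), against 24.2% for Ednrb and 34.1% for Kit. Counting error alone would give 0.989%, 0.889%, 1.97%, 10.4% and 9.49% in the same order. Over the 10 pairs among the 5 tested members, no relation across the 8 libraries passed adjustment. Pax3 and Kit had r = 0.549 (rho = 0.476, two-sided exact permutation p = 0.145 and 0.243, adjusted 0.758 and 0.446), and r = -0.0606 without ND 1 and ND 2. Sox10 and Pax3 had r = 0.429 (rho = 0.69, exact permutation p = 0.289 and 0.0694, adjusted 0.758 and 0.446). Without ND 1 and ND 3 their r was 0.668, and after removing the group means it was 0.232.

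Genes whose log2 CPM ran most like that of a member over the 8 libraries were found among 12443 others, as a description with no test. Nearest to Sox10 were Polrmt (r = 0.971), Apaf1 (0.949) and Trim62 (0.943). Nearest to Pax3 were BC043934 (0.968), Pdia6 (0.967) and Jun (0.911), and nearest to Mc1r were Btd (0.969), Npdc1 (0.934) and Abhd4 (0.925). Kit was followed most closely by Aff3 (0.979), Bmyc (0.943) and Stoml2 (0.932), and Ednrb by Msrb1 (0.949), Sema4g (0.931) and Lgals1 (0.93). The highest values among so many genes are large by selection alone.

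Ligands of the receptors were at low levels or had no counts in the tumours, but not all lay below their receptor. Per length, Kitl averaged 1.27 FPKM against 0.518 FPKM for Kit. Pomc averaged 1.05 FPKM against 169 FPKM for Mc1r, and Edn1 0.234 FPKM against 0.776 FPKM for Ednrb. Kitl, stem cell factor, was at 6.18, 4.82, 6.91 and 9.37 CPM in ND 1 to ND 4 and at 10.6, 9.03, 10.0 and 10.3 CPM in HCD 1 to HCD 4. ND 4 lay among the HCD values and the other ND libraries below them (log2 fold change 0.55, SE 0.191, adjusted p = 0.225, edgeR). Edn3, the endothelin that drives melanoblast growth in skin, had 0 counts in all 8 libraries. Edn1 had 6 to 16 counts in each library and did not pass the filter. Pomc, the precursor of melanocyte-stimulating hormone, averaged 1.03 ± 0.317 CPM (ND) and 1.08 ± 0.537 CPM (HCD). Asip, the agouti antagonist of MC1R, had 0 counts in all libraries too. Mrap, a melanocortin receptor accessory protein, had 9 counts over all libraries.

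Relatives of the members covered a wide range of levels. Ednra, the other endothelin receptor, was at 0.438 FPKM on average against 0.776 FPKM for Ednrb. Erbb3, a neuregulin receptor gene bound by SOX10, was at 22.2 FPKM and at 137 ± 21.96 and 130 ± 36.98 CPM in ND and HCD. Of the TCF genes, Tcf7 was at 8.65 FPKM, Tcf7l1 at 6.12 and Tcf7l2 at 0.285, each above Lef1 in every library. Axin2, a general Wnt target, was at 0.797 FPKM (6.90 ± 1.46 and 6.83 ± 0.972 CPM). Among SOX relatives, Sox6 was at 2.95 FPKM, Sox5 at 0.785 and Sox9 at 0.0669, while Pax7, the closest relative of Pax3, had 3 counts in all. None of Ednra, Erbb3, Tcf7, Tcf7l1, Tcf7l2, Axin2, Sox5 and Sox6 passed the test for diet (edgeR adjusted p from 0.385 to 0.99). With the term for the 3 libraries that stood apart, log2 fold changes turned from -0.30 to 0.00704 for Ednra, from 0.00782 to -0.11 for Tcf7 and from -0.08 to 0.16 for Erbb3, and went from -0.20 to -0.10 for Tcf7l1.

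Mitf, which SOX10 and PAX3 activate in melanocytes, was the only called gene in the pathway lists. It was at 261, 205, 248 and 287 CPM in ND 1 to ND 4 and at 516, 391, 445 and 459 CPM in HCD 1 to HCD 4, with no overlap (log2 fold change 0.85, SE 0.112, adjusted p = 0.0459, edgeR). The adjusted p was between 0.0581 and 0.138 when any 1 library other than ND 2 was left out, 0.106 with the replicate number as a block, 0.339 with the term for the 3 libraries that stood apart and 0.178 without those libraries. The log2 fold change itself was 0.86, 0.79 and 0.81 in these last 3 fits and 0.77 to 0.93 with 1 library left out. DESeq2 gave an adjusted p of 2.02e-09, and edgeR without the expression filter 0.00136. Set beside it, the log2 fold changes of Sox10, Pax3 and Mc1r were 0.17, 0.08 and -0.03.

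In the lists of each pathway, counts at an adjusted p of 0.05 were 0 throughout apart from Mitf, and the share at an unadjusted p under 0.05 is to be read against 14.7% of all genes. The melanocortin pathway had 3 of 21 tested genes at that level, all higher in HCD. They were the transcription factor gene Crem at 8.12 ± 0.97 and 12.1 ± 1.176 CPM, Prkar2b, a regulatory subunit of protein kinase A, at 47.4 ± 7.15 and 64.7 ± 7.49 CPM, and the transcription factor gene Creb1 at 43.8 ± 4.41 and 55.0 ± 8.37 CPM in ND and HCD (edgeR adjusted p = 0.103, 0.141 and 0.247). That share is close to the share of all tested genes, and 11 of the 21 were higher and 10 lower in HCD. Their median log2 fold change was 0.03 against 0.00494 over all tested genes.

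The Kit pathway had 5 of 24 tested genes at an unadjusted p under 0.05, 2 higher and 3 lower, with a median log2 fold change of -0.08. The higher ones were Kitl and Pik3ca, a catalytic subunit of PI3 kinase (log2 fold change 0.43). The lower ones were the adaptor Gab2 (64.0 ± 4.53 and 51.3 ± 4.2 CPM, adjusted p = 0.133), the ubiquitin ligase Cblb (19.98 ± 1.22 and 16.1 ± 2.39 CPM, 0.273) and the feedback inhibitor Spry4 (28.6 ± 3.07 and 23.1 ± 2.96 CPM, 0.273, edgeR). The endothelin pathway had 2 of 17, the phospholipase genes Plcb4, lower (16.6 ± 0.836 and 12.2 ± 1.79 CPM, adjusted p = 0.137), and Plcb1, higher (0.825 ± 0.228 and 1.32 ± 0.166 CPM, 0.338). Its median was 0.01.

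Wnt components had 24 of 33 tested members with a lower HCD value, where 51.1% of all tested genes had a higher one, and a median of -0.09. The 5 at an unadjusted p under 0.05 were 1 higher, Pygo2 (log2 fold change 0.19), a cofactor of β-catenin, and 4 lower. The lower ones were the corepressor Tle3 (37.4 ± 4.23 and 28.6 ± 2.14 CPM, adjusted p = 0.132), the receptors Fzd6 (35.3 ± 2.61 and 28.2 ± 2.96 CPM, 0.178) and Fzd5 (8.93 ± 1.86 and 6.72 ± 0.407 CPM, 0.308), and Dvl1 (44.9 ± 2.09 and 38.3 ± 3.24 CPM, 0.248, edgeR). Wnt target genes had 2 of 11, Nkd2 and Bambi, both lower, with adjusted p = 0.235 and 0.332 (edgeR). Of the 11, 5 were higher and 6 lower, with a median of -0.01.

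Of the SOX and PAX family, 8 of 26 genes passed the filter and 6 had no count. Sox11 was at 70.8 ± 8.11 and 57.1 ± 2.41 CPM and Sox18, a factor of vessel endothelium, at 2.83 ± 0.584 and 4.58 ± 0.656 CPM (adjusted p = 0.164 and 0.17, edgeR). Among neural crest and melanocyte transcription factors, 4 of 20 had an unadjusted p under 0.05, among them Mitf. Ets1 was at 126 ± 54.2 and 66.8 ± 5.54 CPM, with ND 2 and ND 4 at 162 and 183 CPM and the other ND libraries at 83.8 and 76.2 CPM (adjusted p = 0.154). Of 23 SOX10 target and partner genes, 4 did, with Mitf and Met higher and Kdm6b and Gjc3 lower. Met, the hepatocyte growth factor receptor, was at 704 ± 69.8 and 856 ± 78.4 CPM (adjusted p = 0.197). It is also the 1 higher gene among the 5 of 25 surface receptors at that level. The lower receptors were Notch2, Igf1r, Lgr4 and Acvr2a, with Notch2 at 28.5 ± 3.23 and 21.7 ± 0.992 CPM (adjusted p = 0.123). Lgr4 went from a log2 fold change of -0.39 to 0.0132 without ND 2, ND 3 and ND 4.

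The term for those 3 libraries moved several of these differences by more than 1.5 times. Log2 fold changes shrank from -0.39 to -0.00406 for Lgr4, from -0.42 to -0.08 for Gjc3, from -0.92 to -0.33 for Ets1, from -0.37 to -0.12 for Bambi and from -0.32 to -0.16 for Fzd6. That of Sox18 went from 0.69 to 0.37 and that of Plcb1 from 0.66 to 0.44. Creb1 went the other way, from 0.33 to 0.50, as did Kdm6b, from -0.30 to -0.48.

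Summed marker levels of several host cell types lay apart between the groups in part, while no marker was called in any of the 10 lists. Of 12 tested macrophage markers, 11 were higher in HCD, with sums of 337 to 561 CPM in ND against 504 to 661 CPM in HCD. An unadjusted p under 0.05 was found for 4 of the 12, all higher in HCD, against 14.7% of all tested genes, 7.21% higher. Among them Mrc1 was at 9.05 ± 1.96 and 20.3 ± 4.37 CPM (adjusted p = 0.0506, edgeR). Its groups did not overlap, as for 9.67% of tested genes. All 10 tested fibroblast markers were higher in HCD, none at an unadjusted p under 0.05, with sums of 72.7 to 336 CPM and 95.9 to 336 CPM. All 5 tested skeletal muscle markers were lower in HCD, each at an unadjusted p under 0.05 (edgeR). Of all tested genes, 14.7% had such a p, 7.49% lower. Skeletal muscle sums were 4.51 to 80.2 CPM in ND, led by ND 2 and ND 1, and 3.21 to 6.75 CPM in HCD. Keratinocyte markers summed to 5.06 to 6.42 CPM and 3.01 to 4.56 CPM, without overlap. Krt5, Dsg3, Lor and Ivl were at 0, and only Perp and Sfn were tested. Almost all of these sums came from Perp and Sfn, with 253 and 382 counts over all libraries. No other marker of this list had more than 3 counts. Taken singly, Perp and Sfn each overlapped between the groups, and which cells they came from was not tested. Pericyte and smooth muscle markers, 7 higher and 4 lower, summed to 237 to 363 CPM and 272 to 353 CPM. Mcam, at 201 ± 41.5 and 204 ± 33.5 CPM, made up most of these sums. It is also in the list of melanocyte surface receptors, and which cells it came from was not tested. The 2 at an unadjusted p under 0.05, Acta2 and Cspg4, were both higher in HCD. Acta2 was at 17.2 ± 4.999 and 29.2 ± 8.11 CPM and Cspg4 at 3.48 ± 0.85 and 5.096 ± 1.05 CPM (adjusted p = 0.185 and 0.309, edgeR). The part of these host cell types in the values of Kitl, Sox18, the Wnt genes and the other lists was not tested.

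Host cells also express these genes: mast cells Kit, vessel cells Ednrb, T cells Lef1 and Schwann cells Sox10. Mast cell markers were near zero, with 10 of 11 detected, 1 tested, and sums of 0.784 to 2.35 CPM in ND and 0.454 to 1.39 CPM in HCD. Mcpt2 had no count, Cpa3 had 11 counts in all and Cma1 had 4. HCD 2, where Kit was highest, had a mast cell sum of 1.39 CPM, and ND 3, where Kit was second, had the highest sum, 2.35 CPM. Hdc, the 1 tested marker, made up 2.22 CPM of the ND 3 sum. Endothelial markers, all 12 detected, summed to 320 to 388 CPM in ND and 299 to 379 CPM in HCD. Of the 12, 5 had an unadjusted p under 0.05, all higher in HCD, against 14.7% of all tested genes, 7.21% higher, and 0 were called. Vwf, at 198 ± 19.1 and 169 ± 38.1 CPM, was the highest of the 12 in both groups and by far the largest part of the sums. It was 1 of 3 markers with a lower value in HCD, while 9 were higher. Ednrb was highest in ND 1 and HCD 3, whose endothelial sums were 388 and 379 CPM, but HCD 2, also at 379 CPM, had Ednrb at 4.91 CPM. T cell markers, all 13 detected, summed to 10.2 to 31.5 CPM in ND and 16.4 to 26.0 CPM in HCD. Lck, at 12.2 ± 4.00 and 11.1 ± 2.04 CPM in ND and HCD, was on average the largest part of the T cell sums. ND 3 had the highest T cell sum and a Lef1 count of 0, where an observed 0 allows up to 3 counts. Schwann cell markers, all 12 detected, summed to 320 to 391 CPM in ND and 286 to 340 CPM in HCD. Mbp, Pmp22 and Cdh19 made up most of the sum. The part of these cells in the members' values was not tested.

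**Figure D4:**
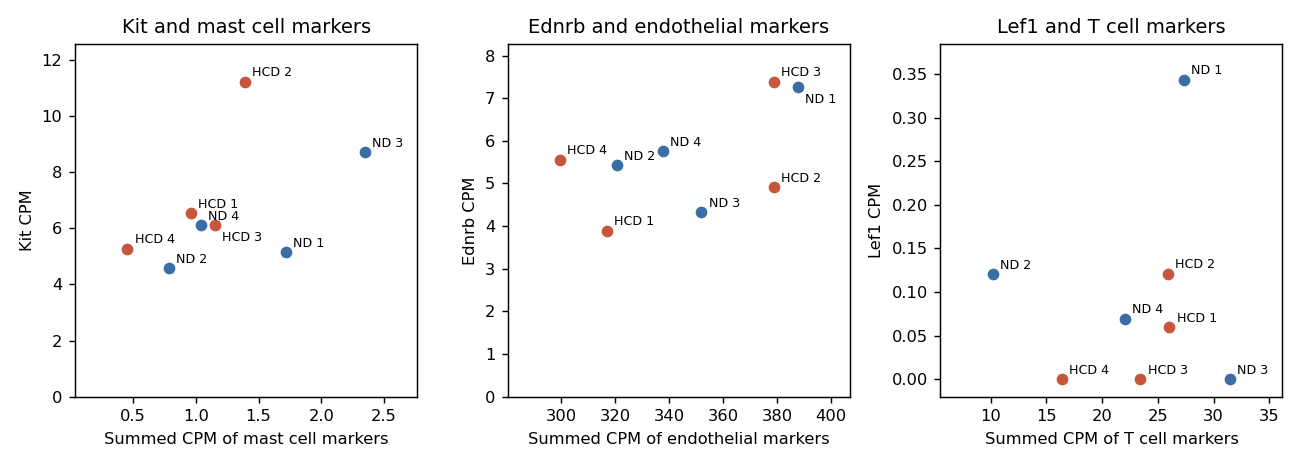
CPM of Kit, Ednrb and Lef1 (vertical) against the summed CPM of mast cell, endothelial and T cell markers (horizontal), 1 point per library, ND in blue and HCD in red. Kit reaches 11.2 CPM where mast cell markers sum to 1.39 CPM, and Ednrb is highest in ND 1 and HCD 3. Lef1 is at 0 in ND 3, the library with the highest T cell sum, and an observed 0 allows up to 3 counts.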

How the data were processed

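RNA of whole tumours was purified on RNeasy columns and sequenced as TruSeq RNA libraries, per the labels' protocols. TopHat2 2.0.9, HTSeq, edgeR, CASAVA 1.8 and the build mm10 appear in the submitters' processing notes. Not given in the sources used here are the annotation, the strand setting and the gene lengths behind FPKM. The deposited values are, per the file headers, counts (whole numbers per Ensembl gene, not normalized) and FPKM.

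Counts were tested with edgeR 4.0.16 (R 4.3.3): TMM factors, edgeR's expression filter (minimum count 10, total 15), the quasi-likelihood test on 8 libraries with diet as the only term, and Benjamini-Hochberg adjustment over 13186 genes with a threshold of 0.05. Standard errors are the log2 fold change over the root of F, and intervals are 95%. Names and coordinates came from GENCODE M21 (GRCm38, the assembly also called mm10), which named 34267 of 34745 genes. Asip and Tle5 were matched by their older names. Within each group, pairs of libraries differed by 14.5 to 37.6 times sampling noise, so none was counted as the same library deposited again. Intervals on counts cover counting error only.

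The 6 members, 9 pathway lists and 10 marker lists (361 symbols) were chosen with earlier results of these data known. Named were the members, ligands and relatives fixed by name, up to 4 genes of each pathway list with the smallest p and a mean of at least 1 CPM, and the 3 genes most like each member. Acvr2a, Pik3ca, Pygo2, Mrc1, Perp, Sfn, Vwf, Mbp, Pmp22, Cdh19, Cpa3, Cma1, Hdc, Mcam, Acta2, Cspg4 and Lck were added after their values were seen. Alternatives were DESeq2 1.42.0 (its size factors, and its Wald test), upper-quartile factors, no filter, limma-voom (limma 3.58.1), the replicate block, each library left out, a term for ND 2, ND 3 and ND 4, and no mitochondrial genes.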

Additional observations from a re-analysis of the deposited data

Results flagged for a closer look

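Values below lay far from the other 3 libraries of their group, by the ratio of the gap to the whole range (above Dixon's 95% limit for 4 values). Chance alone flags about 1 in 20 groups, and 110 groups were looked at. Among the members only Sox10 was flagged, at 869 CPM in HCD 3 against 784 to 797 CPM in the other HCD libraries. Of the receptor and ligand genes, Ednra reached 4.26 CPM in ND 3 (others 2.35 to 2.57) but only 1.26 CPM in HCD 1 (others 2.6 to 2.79), and Edn1 was at 0.964 CPM in ND 2 (others 0.416 to 0.458). Igf1r was at 17.4 CPM in ND 4 (others 15.7 to 16 CPM), and Lgr4 at 10.0 CPM in ND 1 (others 13.7 to 14.4 CPM). Mrap was at 0.114 CPM in ND 1, and Pax7 at 0.139 CPM in ND 4 and, separately, at 0.0567 CPM in HCD 4, each with 0 in the other libraries of the group. Mrap had only 9 counts and Pax7 3 over all libraries, and any count beside zeros gives a ratio of 1. Sox9 was at 0.72 CPM in HCD 1 (others 0.0606 to 0.173), and Pou3f1, a POU-domain factor, at 7.79 CPM in HCD 1 (others 3.27 to 3.98). Of the signalling genes, Adcy6 was at 36.5 CPM in ND 3 (others 46 to 47.9), Gab2 at 70.7 CPM in ND 1 (others 60.8 to 62.5), Rgs2 at 8.41 CPM in ND 1 (others 5.06 to 5.42) and Tnfrsf19 at 41.1 CPM in HCD 1 (others 48.1 to 49.2).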

How the results depend on the processing

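No member was called in any of the 17 alternatives, DESeq2 and limma-voom included. Adjusted p-values ran from 0.253 to 0.483 for Sox10, 0.534 to 0.934 for Pax3, 0.754 to 0.996 for Mc1r, 0.488 to 0.966 for Kit and 0.664 to 0.981 for Ednrb. Over all genes, 24 were called, 437 by DESeq2, 93 with no expression filter, 0 with the replicate block (1634 at an unadjusted p under 0.05), 5 with the term for the 3 ND libraries that stood apart, and 0 (without ND 4, 1603 unadjusted, or without HCD 4, 1516) to 12 (without ND 2) when 1 library was left out. The labels give no pairing of samples by replicate number. Deviations of same-numbered libraries correlated at 0.0249, -0.0113, -0.0676 and 0.107, and not every library correlated best with its own number. Low correlations of this kind do not exclude a pairing. On the scale of the log2 fold change, Ednra was with the term at 0.00704, Tcf7 at -0.11 and Erbb3 at 0.162, opposite in sign to their values without it. Without ND 2, ND 3 and ND 4 together, an alternative chosen after seeing the data, Ednra was at 0.0242, Tcf7 at -0.0929, Erbb3 at 0.179, Sox21 at 0.0103 and Lgr4 at 0.0132. With limma-voom, Pomc was at -0.0474 and Axin2 at 0.00358. Leaving out 1 library turned the sign of genes near zero: Kit ran from -0.0372 to 0.465, Ednrb from -0.252 to 0.0748, Pomc from -0.227 to 0.3395, Sox5 from -0.0988 to 0.1585, Tcf7 from -0.131 to 0.1003, Axin2 from -0.145 to 0.0807 and Erbb3 from -0.243 to 0.04411. DESeq2 alone called Crem, Prkar2b, Gab2, Plcb4, Tle3 and Notch2 (adjusted p from 0.0149 to 0.0404). At 65 to 185 counts per library, the intervals of Kit and Ednrb leave differences of up to about 0.86 and 0.58 on the log2 scale undetected.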
